A study of Mus musculus with 3 samples.

Results

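Ccl2, Ccl7, Ccl12, Ccl8, Ccr2 and Cx3cr1, the genes of 4 chemokines that draw monocytes into tissue and of 2 receptors that monocytes carry, were followed across the cell classes of acetaminophen-injured mouse liver. They were found by symbol among the 34099 genes of each count matrix, and all 6 were present, under the identifiers ENSMUSG00000035385, ENSMUSG00000035373, ENSMUSG00000035352, ENSMUSG00000009185, ENSMUSG00000049103 and ENSMUSG00000052336 in that order. Mice received 500 mg/kg of acetaminophen (APAP), which injures the centre of the liver lobule, and an infusion 6 h later, and livers were collected after 4 days. The infusion was PBS, native mesenchymal stromal cells (native MSC) or MSCs engineered with bispecific polyvalent peptides (engineered MSC). Each group was 1 library of dissociated liver cells, so all 3 carried the injury, and no uninjured liver was analysed here. Strain and age were not given in the sources used here.

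Chemokines of the CCL2 family are small secreted proteins that bind CCR2 on monocytes and let these cells leave the bone marrow and enter injured tissue. In the mouse, Ccl2, Ccl7 and Ccl12 encode the main CCR2 ligands and lie with Ccl8 in one chromosomal cluster, while the Ccl8 protein acts chiefly through CCR8. CX3CR1 binds fractalkine, the product of Cx3cl1, and is known from patrolling monocytes, which survey vessel walls, and from tissue macrophages. In acetaminophen injury, CCR2-bearing monocytes enter the necrotic area and turn into macrophages that clear debris, while resident Kupffer cells are partly lost.

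The libraries held 10739 (PBS), 11479 (native MSC) and 11028 (engineered MSC) barcodes, of which 9534, 9175 and 9131 were kept, with median depths of 5781, 5659 and 3668 UMIs per kept cell. Between 39 and 46 barcodes were shared by each pair of libraries, and their profiles were about as alike as those of other barcodes. Cells were clustered without the 6 genes, and a cluster was called "like" a type from marker genes. In 48 of 51 combinations of class and library, every marker of the class was higher than in the remaining cells, and the classical monocyte-like class of native MSC had 9 of 10. The others were 2 libraries of a monocyte class that scored highest for patrolling monocytes. Of its 8 markers, 6, 5 and 8 were higher than in the rest in the PBS, native MSC and engineered MSC libraries. Ace, at 63.6 CPM against 10.4 CPM in the largest classical monocyte-like cluster of PBS, and Adgre4 were high. Ly6c2, a classical marker, stood at 252 CPM, above the 165 CPM of that cluster. That cluster, cluster 0, had a mean log2 ratio of 1.26 over the classical markers, against 2.50 in cluster 1, the other classical monocyte-like cluster. The markers thus gave a mixed picture, with most patrolling markers high and Ly6c2 high as well. The patrolling label was not used, and these cells are called Ace-high monocyte-like cells. CPM is the gene's UMIs per 1000000 UMIs of the class, and intervals in parentheses are 95% intervals that cover counting error only. They treat UMIs as independent and leave out variation between cells. Intervals that do not overlap are thus separated by counting error alone. With 1 library per group, no difference could be tested against variation between mice.

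Ccl2 encodes the CCR2 ligand MCP-1. In PBS it stood at 523 CPM (510 to 535) in classical monocyte-like cells, 293 CPM (286 to 299) in macrophage-like cells, 282 CPM (265 to 299) in Ace-high monocyte-like cells, 247 CPM (234 to 261) in Kupffer cell-like cells and 421 CPM (390 to 453) in stellate cell or fibroblast-like cells. The intervals of the macrophage-like and Ace-high cells overlapped, so these neighbours in the order were not separated. The B cell-like cells, which are not a known source, gave 32.6, 28.2 and 7.29 CPM in PBS, native MSC and engineered MSC. This served as a rough guide to free RNA in each library, and free RNA may reach a higher level in other classes. The monocyte-like, macrophage-like, Kupffer cell-like and stellate cell or fibroblast-like classes of PBS thus stood far above this level. The cDC2-like class of dendritic cells did not in PBS, at 29.5 CPM, nor did neutrophil-like cells stand far above it, at 47.8 CPM. In the MSC libraries both classes stood above the B cell-like level. The cDC2-like cells were at 131 CPM (111 to 154) in native MSC and 32.2 CPM (24.8 to 41.2) in engineered MSC. Neutrophil-like cells had 686 Ccl2 UMIs in native MSC and were at 32.8 CPM (20.6 to 49.7) in engineered MSC. Sinusoidal endothelium-like cells were at 72.0, 89.9 and 19.4 CPM in PBS, native MSC and engineered MSC, with cluster 10 holding 99.4% and 94.1% of the first 2 and cluster 5 holding 95.1% of the last. Within cluster 10 engineered MSC was instead the highest, the 3 levels being 72.0 CPM (66.1 to 78.4), 92.8 CPM (74.9 to 114) and 124 CPM (105 to 145), the last 2 from 80 and 79 cells.

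In the native MSC library Ccl2 was at 859 CPM (846 to 871) in classical monocyte-like, 839 CPM (822 to 856) in macrophage-like and 735 CPM (699 to 772) in Ace-high monocyte-like cells. In the engineered MSC library the same classes were at 964 CPM (916 to 1014), 497 CPM (478 to 517) and 272 CPM (230 to 319). Native MSC was the highest of the 3 libraries in macrophage-like and Ace-high cells, and engineered MSC was the highest in classical monocyte-like cells. Within the classical class engineered MSC was the highest in cluster 0 only, and native MSC was the highest in cluster 1. Cluster 0 held 75.3%, 40.5% and 53.2% of that class in PBS, native MSC and engineered MSC, and cluster 1 held the rest. Kupffer cell-like cells did not follow these class orders, with 247 CPM in PBS, 205 CPM (151 to 271) in only 31 native MSC cells and 75.8 CPM (65.6 to 87.0) in engineered MSC. Stellate cell or fibroblast-like cells stood at 248 and 132 CPM in native and engineered MSC, from different clusters: cluster 24 held 70.9% of the class in PBS and 79.1% in engineered MSC, and cluster 28 held 69.3% in native MSC. Within cluster 24 Ccl2 was at 461 CPM (426 to 498) in PBS, 413 CPM (359 to 473) in 23 native MSC cells and 142 CPM (120 to 166) in engineered MSC. The native MSC interval overlapped that of PBS there, and engineered MSC was lower.

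**Figure D1:**
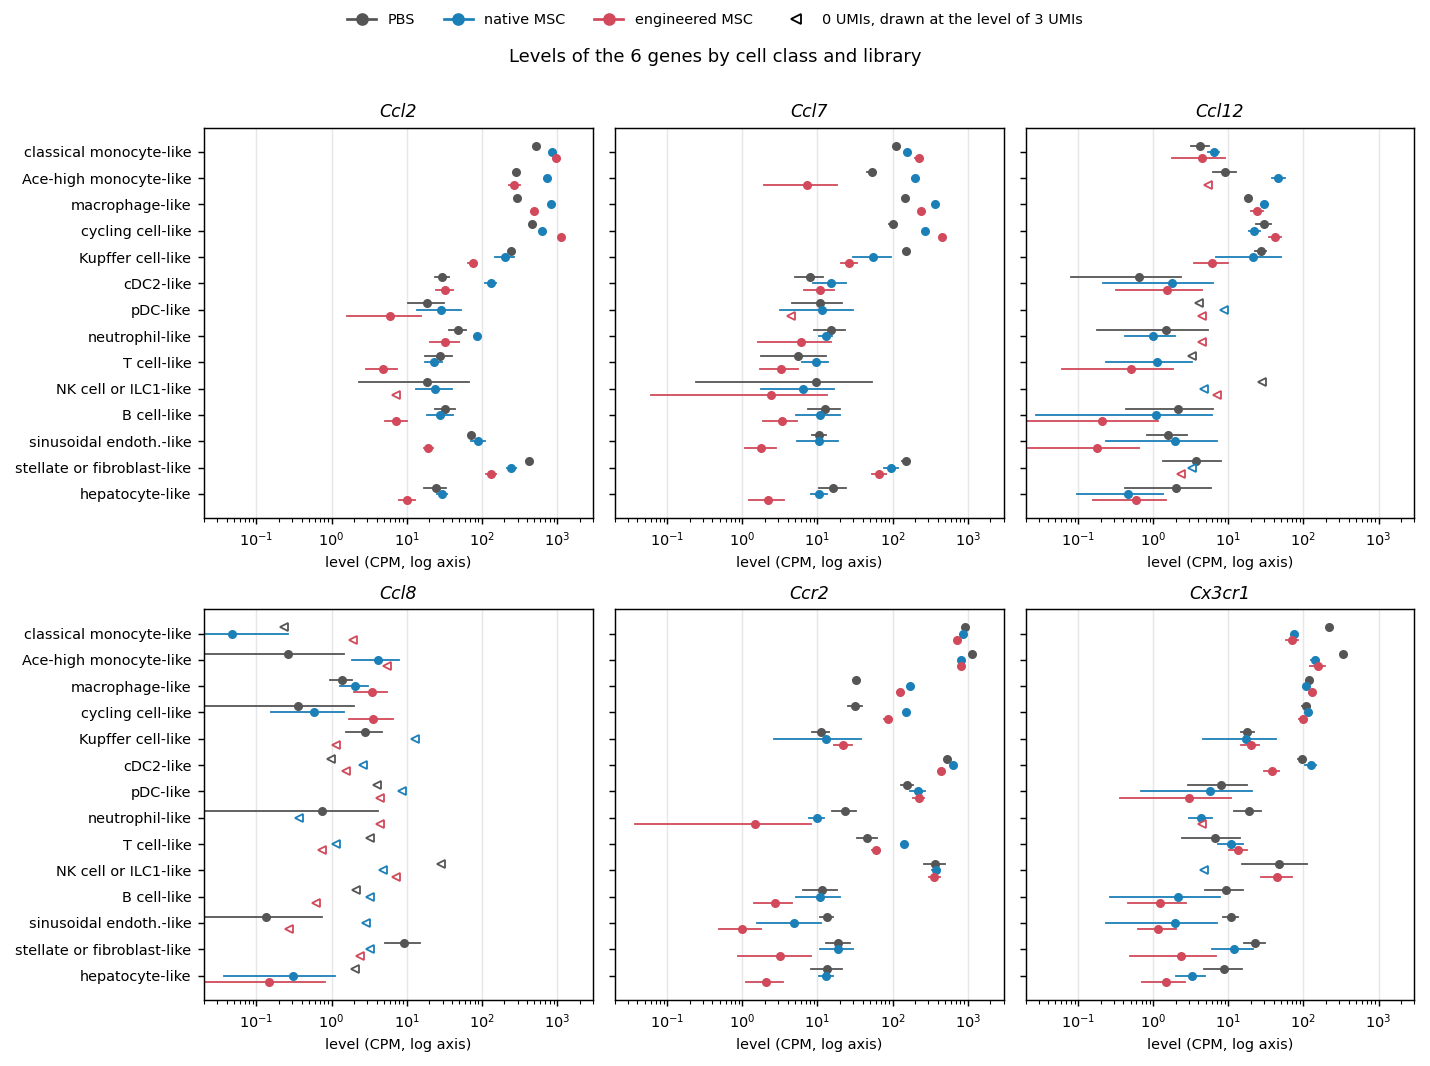
Level of each gene (CPM, log axis) in 14 cell classes of the 3 libraries, with 95% counting intervals as lines. Open triangles mark classes with 0 UMIs, drawn at the level that 3 UMIs would give. Ccl2 is highest in classical monocyte-like cells of PBS and native MSC and in cycling cells of engineered MSC. Ccl7 is led by stellate cell or fibroblast-like, Kupffer cell-like and macrophage-like cells in PBS, macrophage-like cells in native MSC and cycling cells in engineered MSC, and Ccr2 is highest in monocyte-like, cDC2-like and NK cell or ILC1-like classes.

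A small part of the cells carried most Ccl2. The 10% of classical monocyte-like cells with the most Ccl2 held 70.2%, 64.5% and 67.1% of its UMIs in PBS, native MSC and engineered MSC. For Ccr2 the corresponding 10% held 26.6%, 23.8% and 25.1%. A single macrophage-like cell held up to 143, 405 and 211 Ccl2 UMIs. The ligand transcript was therefore spread less evenly over these cells than the receptor transcript. At least 1 Ccl2 UMI was found in 48.4%, 63.7% and 60.1% of classical monocyte-like cells, at median depths of 6815, 8546 and 9429 UMIs. After thinning each cell to 2000 UMIs, which left out 56, 24 and 1 cells, the shares were 31.1%, 41.0% and 40.3%. The B cell-like cells gave 6.90%, 7.23% and 2.12% unthinned, at median depths of 2231, 2302 and 2789 UMIs, and 5.67%, 4.204% and 1.57% thinned.

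Ccl7, which encodes MCP-3, another CCR2 ligand that also binds CCR1 and CCR3, was at 147 CPM (142 to 152) in PBS, 369 CPM (358 to 380) in native MSC and 237 CPM (224 to 251) in engineered MSC macrophage-like cells. Kupffer cell-like cells were at 149, 55.4 and 26.6 CPM and stellate cell or fibroblast-like cells at 150, 95.1 and 65.9 CPM, so that these 3 classes overlapped as the highest of PBS. Classical monocyte-like cells were at 112, 155 and 221 CPM, and cycling cells at 102, 266 and 461 CPM. Ace-high cells were at 53.0, 200.5 and 7.21 CPM, above classical monocyte-like cells in native MSC only. B cell-like cells were at 12.7, 10.8 and 3.33 CPM. Macrophage-like cells held 55.6%, 40.5% and 37.8% of all Ccl7 UMIs.

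The classical monocyte-like class was not uniform for Ccl7. Cluster 0, led by Thbs1, Fn1 and Vegfa, held 145, 299.7 and 382 CPM in PBS, native MSC and engineered MSC. Cluster 1, led by Vcan, Chil3 and Plac8, held 7.16, 38.1 and 1.504 CPM. The second cluster was thus not above the B cell-like level of Ccl7 in PBS and engineered MSC. Ccl2 differed less, with 603, 1210 and 1379 CPM in cluster 0 and 268, 574 and 396 CPM in cluster 1. Engineered MSC was thus the highest library for Ccl2 in cluster 0 and native MSC in cluster 1. Counted against each other, Ccl7 gave 24.0, 24.8 and 27.7 UMIs per 100 Ccl2 UMIs in cluster 0 and 2.67, 6.65 and 0.38 in cluster 1. In macrophage-like cells of cluster 11 the figures were 45.4, 44.3 and 49.6. Other clusters spread more widely. Kupffer cell-like cluster 13 gave 61.1, 27.1 and 38.7, macrophage-like cluster 2 gave 50.3 in PBS and 24.5 in native MSC, and Ace-high cluster 9 gave 18.8, 27.3 and, from 1 Ccl7 UMI in engineered MSC, 1.54.

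Ccl7 and Ccl2 were found in the same cells. Among macrophage-like cells with Ccl7, 83.0% (PBS), 91.6% (native MSC) and 90.9% (engineered MSC) also had Ccl2. Without Ccl7, 48.7%, 54.7% and 24.8% had it. Cells with Ccl7 were deeper, with medians of 14127 against 11401 UMIs in PBS, 14380 against 11719 in native MSC and 17581 against 9701 in engineered MSC, and the part of depth in this was not tested.

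Ccl12 encodes MCP-5, a mouse CCR2 ligand. It was of low level, at 18.4 CPM (16.8 to 20.1), 30.1 CPM (26.9 to 33.5) and 24.4 CPM (20.2 to 29.1) in macrophage-like cells of PBS, native MSC and engineered MSC. Kupffer cell-like cells stood at 27.1 CPM (22.9 to 31.9), 21.3 CPM (6.92 to 49.8) and 6.09 CPM (3.48 to 9.89). Classical monocyte-like cells, the highest class for Ccl2 in PBS, were at 4.2, 6.42 and 4.45 CPM. Cycling cells were the highest class in PBS and engineered MSC, at 29.6 CPM (23.6 to 36.7) and 42.0 CPM (34.8 to 50.3), and stood at 22.3 CPM in native MSC. Ace-high monocyte-like cells were the highest class of native MSC, with 46.5 CPM (37.9 to 56.6), and had 9.05 CPM in PBS and 0 UMIs in engineered MSC, where 3 UMIs would have given 5.41 CPM. The summed level of 12 macrophage markers in these Ace-high cells moved the same way, from 10802 CPM in PBS to 19786 CPM in native MSC and 4756 CPM in engineered MSC, and its part in the Ccl2, Ccl7 and Ccl12 differences of this class was not tested.

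Ccl8, which encodes MCP-2, was close to the limit of detection, with 71, 39 and 29 UMIs among all kept cells of PBS, native MSC and engineered MSC. Macrophage-like cells held 37, 23 and 17 of them, at 1.36, 2.06 and 3.45 CPM. In PBS, Kupffer cell-like and stellate cell or fibroblast-like cells each held 15, and in the stellate class 13 of the 15 lay in 1 cell. By level, Ccl8 was highest in stellate cell or fibroblast-like cells of PBS (9.20 CPM), Ace-high cells of native MSC (4.15 CPM) and cycling cells of engineered MSC (3.53 CPM). It could not be followed further at this depth. The 250 bases upstream of the start sites of the neighbouring Ccl12 and Ccl8 are shown because the macrophage-like class held the largest share of UMIs of both in each library. For Ccl12 in engineered MSC this lead was 120 UMIs against 119 in cycling cells. The sequences are from RefSeq on the GRCm38.p6 build, on the plus strand at chr11:82101595-82101844 and chr11:82114935-82115184, whereas the counts were made on GRCm39. Promoter entries were matched for 4 of the 6 genes, and these 2 are printed 5′ to 3′ with motif matches in capitals.

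Ccl12: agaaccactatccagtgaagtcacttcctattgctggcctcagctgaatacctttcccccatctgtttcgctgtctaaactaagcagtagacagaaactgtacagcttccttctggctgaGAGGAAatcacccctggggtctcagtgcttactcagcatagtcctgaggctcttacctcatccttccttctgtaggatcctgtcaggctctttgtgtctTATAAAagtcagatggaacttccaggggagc
Ccl8: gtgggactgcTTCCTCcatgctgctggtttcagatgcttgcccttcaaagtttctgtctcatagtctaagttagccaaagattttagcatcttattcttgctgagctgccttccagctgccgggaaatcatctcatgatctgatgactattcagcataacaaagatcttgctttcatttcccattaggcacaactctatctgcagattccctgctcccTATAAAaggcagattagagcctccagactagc

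Both stretches held a TATA box (TATAAA), 31 to 26 bases upstream in Ccl12 and 32 to 27 bases upstream in Ccl8, a motif found in 12.4% of 32851 promoter windows of this length. Both also held the PU.1 core GAGGAA, the motif of the myeloid factor PU.1, which 23.3% of windows hold. It lay 130 to 125 bases upstream in Ccl12 and, as its reverse complement TTCCTC, 240 to 235 bases upstream in Ccl8. A kappaB-type motif, an AP-1 motif (TGANTCA), an ISRE core, a GAS-type motif (TTCNNNGAA) and a C/EBP-type motif (TTGCNNAA), searched on both strands, had no match in either. The best local alignment of the stretches covered 54 bases with 41 identical. None of the 7 motifs matched in the windows of Ccr2 or Cx3cr1.

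Ccr2, the receptor of Ccl2, Ccl7 and Ccl12, was highest in monocytes. Classical monocyte-like cells stood at 929 CPM (912 to 946) in PBS, 852 CPM (839 to 864) in native MSC and 713 CPM (672 to 756) in engineered MSC, and Ace-high cells at 1123, 813 and 820 CPM. The intervals of the 3 libraries did not overlap in classical monocyte-like cells, though the range was narrow. Dendritic cells of the cDC2-like class carried 529, 639 and 445 CPM. NK cell or ILC1-like cells carried 369 CPM (262 to 504), 380 CPM (333 to 432) and 361 CPM (305 to 423), which overlapped in all 3 libraries. Plasmacytoid dendritic cell-like (pDC-like) cells had 156, 219 and 224 CPM and T cell-like cells 46.1, 142 and 60.04 CPM. All T cell-like cells of PBS and native MSC lay in cluster 14, and 70.7% of those of engineered MSC in cluster 20, led by genes that include Lef1 and Tcf7. Within cluster 14 Ccr2 was at 46.1 CPM (33.2 to 62.3), 142 CPM (128 to 157) and 112 CPM (97.1 to 128), so both MSC libraries were above PBS there. B cell-like cells had 11.3, 10.8 and 2.71 CPM and Kupffer cell-like cells 11.2, 12.8 and 22.1 CPM. Lymphoid and dendritic receivers were thus present beside monocytes, while Kupffer cell-like cells were at the B cell-like level in PBS and native MSC.

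At least 1 Ccr2 UMI was found in 90.4%, 95.5% and 93.04% of classical monocyte-like cells, or 74.8%, 76.0% and 69.5% after thinning to 2000 UMIs. For B cell-like cells the thinned shares were 1.80%, 1.66% and 0.585%. Of classical monocyte-like cells with a Ccl2 UMI in PBS, native MSC and engineered MSC, 93.7%, 95.9% and 92.6% also had a Ccr2 UMI. These shares were close to the 90.4%, 95.5% and 93.04% of the whole class. Ligand and receptor transcripts were thus found in the same cells because nearly all cells of the class had Ccr2. No link between the 2 genes follows from these shares.

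Cx3cr1, the fractalkine receptor, was at 222 CPM (214 to 230) in classical monocyte-like cells of PBS, against 75.4 CPM (71.8 to 79.2) in native MSC and 70.5 CPM (58.0 to 84.9) in engineered MSC. In Ace-high cells the levels were 336 CPM (317 to 355), 141 CPM (126 to 158) and 155 CPM (124 to 191). PBS was the highest library in both monocyte classes, and the 2 MSC libraries overlapped. Cluster 0 held 75.3%, 40.5% and 53.2% of the classical class in PBS, native MSC and engineered MSC. The part of this makeup in the Cx3cr1 class levels was not tested. Macrophage-like cells were at 117, 109 and 131 CPM, and Kupffer cell-like cells stood at 18.0, 17.1 and 19.8 CPM. The cDC2-like cells had 94.8, 125 and 37.8 CPM, and B cell-like cells 9.20, 2.17 and 1.25 CPM. The macrophage-like levels compare mostly cluster 2 of PBS with cluster 11 of the MSC libraries, both described further on. Within cluster 11 Cx3cr1 was at 181 CPM (140 to 230) in PBS, 111 CPM (105 to 118) in native MSC and 141 CPM (130 to 152) in engineered MSC. The PBS level was the highest there too, though its interval overlapped that of engineered MSC.

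**Figure D2:**
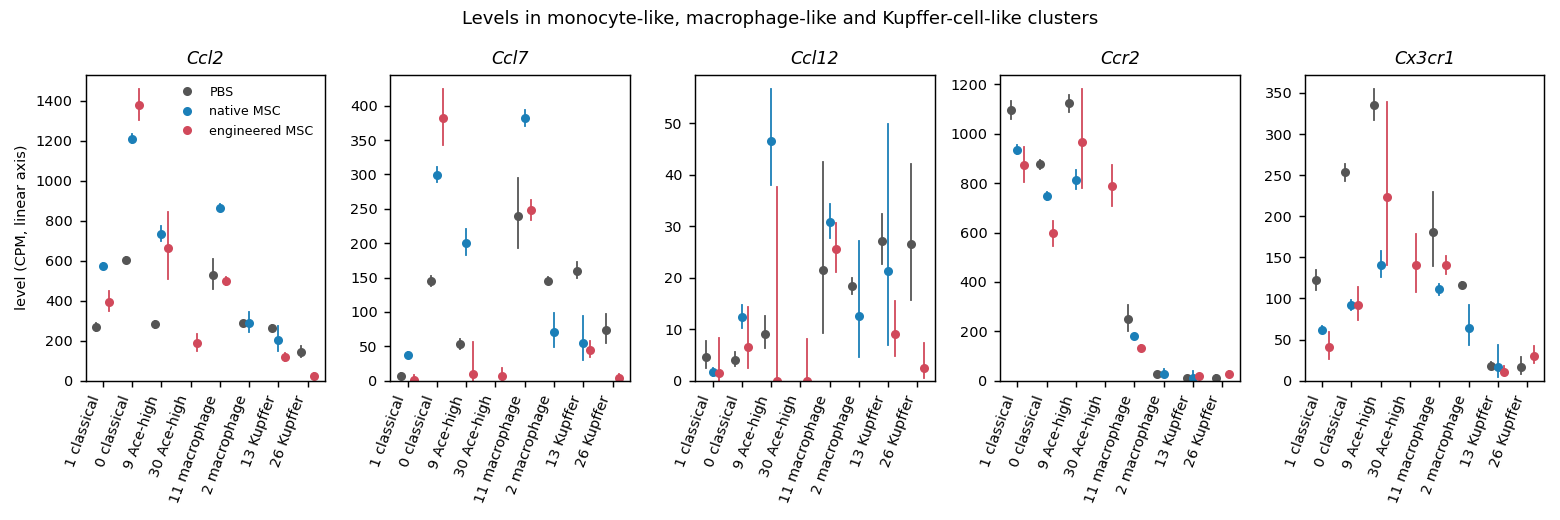
Level (CPM, linear axes that differ between panels) of 5 genes in the clusters of monocyte-like, macrophage-like and Kupffer cell-like cells, by library, with 95% counting intervals. Ccl7 separates classical clusters 0 and 1, and Ccr2 separates macrophage-like cluster 11 from cluster 2.

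Engineered MSC and PBS were compared to see how sources and receivers of the chemokines differed when engineered cells were infused. Over all kept cells, every one of the 6 genes was lower in engineered MSC. Ccl2 was at 162 against 277 CPM, a ratio of 0.587 (0.572 to 0.602), and Ccl7 at 60.9 against 99.4 CPM, a ratio of 0.613 (0.587 to 0.639). Ccr2 was at 92.7 against 268 CPM, a ratio of 0.346 (0.335 to 0.358), and Cx3cr1 at 27.1 against 113 CPM, a ratio of 0.239 (0.226 to 0.253). Ccl12, Ccr2 and Cx3cr1 were at least 2-fold lower, that is 3 of 6 members, where 6.22% of 18781 genes with at least 20 UMIs were at least 2-fold lower. The median log2 ratio of the 6 genes was -0.94, beside 0.30 over all those genes. The classes that hold these transcripts were also smaller, classical monocyte-like cells making up 1.73% of engineered MSC against 19.4% of PBS cells and macrophage-like cells 4.04% against 20.4%. A change in the number of cells in the liver and a change in their recovery by dissociation cannot be told apart.

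Within macrophage-like cells the ligands stood higher. Macrophage-like cells of engineered MSC had ratios to PBS of 1.70 (1.62 to 1.78) for Ccl2, 1.61 (1.51 to 1.72) for Ccl7, 1.33 (1.08 to 1.62) for Ccl12, 2.53 (1.34 to 4.61) for Ccl8 and 3.84 (3.46 to 4.26) for Ccr2. Ccl8 and Ccr2, 2 of 6 members, were past 2-fold higher, against 7.94% of genes, and the median log2 ratio of the members was 0.73 beside 0.018 over all genes. These cells came from different clusters, since cluster 2, led by Atp6v0d2, Gpnmb and Lpl, held 97.1% of the class in PBS, and cluster 11, led by Spp1, Pf4 and Cbr2, held 95.9% in engineered MSC. Within cluster 11, which held 56 PBS cells, the ratio was 0.944 (0.816 to 1.10) for Ccl2, 1.03 (0.831 to 1.30) for Ccl7 and 0.529 (0.424 to 0.665) for Ccr2. The higher class level of Ccl2 and Ccl7 was therefore not seen within that cluster, and Ccr2 turned to the opposite direction. The summed level of 10 classical monocyte markers in the macrophage-like class was 417, 2902 and 1664 CPM in PBS, native MSC and engineered MSC, and its part in these differences was not tested. Ccr2 stood at 29.2 CPM in cluster 2 of PBS and at 251 CPM in cluster 11 of PBS. When each cell counted alike in place of each UMI, the log2 ratio of Ccl2 fell to 0.23, from 0.76.

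Classical monocyte-like cells of engineered MSC had Ccl2 at a ratio of 1.84 (1.74 to 1.95) and Ccl7 at 1.98 (1.75 to 2.23). Here the direction of Ccl2 was the same within cluster 0, at 2.29 (2.15 to 2.43), and within cluster 1, at 1.48 (1.28 to 1.70). Ccl7 was higher within cluster 0, at 2.64 (2.34 to 2.97), and had 1 UMI in the 74 engineered MSC cells of cluster 1. Ccr2 was lower in the class, at 0.768 (0.722 to 0.817), and Cx3cr1 at 0.318 (0.261 to 0.384). Cx3cr1 was the 1 of 5 measured members past 2-fold lower, where 8.94% of genes were, and the median log2 ratio of these 5 was 0.081 beside -0.14 over all genes. Its ratio was 0.365 (0.290 to 0.454) in cluster 0 and 0.333 (0.216 to 0.492) in cluster 1. Only 158 classical monocyte-like cells of engineered MSC stood behind these values.

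Kupffer cell-like cells of engineered MSC, 407 against 682 in PBS, had ratios of 0.307 (0.263 to 0.356) for Ccl2, 0.179 (0.138 to 0.228) for Ccl7 and 0.225 (0.125 to 0.377) for Ccl12. These were the 3 ligands past 2-fold lower, and 15 Ccl8 UMIs of PBS stood against 0, where 5.65% of genes were past 2-fold lower. Within cluster 13, which held most of the class, Ccl2 was at 0.446 (0.378 to 0.525). Stellate cell or fibroblast-like cells had Ccl2 at 0.313 (0.263 to 0.372) and Ccl7 at 0.441 (0.339 to 0.567), where 9.35% of genes were past 2-fold lower. The makeup of the Kupffer cell-like class differed between the libraries. Cluster 26, led by Clec4f, Timd4 and Vsig4, held 31.4% of it in engineered MSC and 9.38% in PBS, and had Ccl2 at 26.03 against 143 CPM. When the cells were clustered more finely (Leiden resolution 2), a cluster led by Marco, Ank2 and Mmp12 held 607 PBS and 28 engineered MSC cells, and one led by Clec4f, C6 and Timd4 held 4 and 250. How far this split accounts for the lower class levels was not tested. In Ace-high cells of engineered MSC, Ccl7 had 4 UMIs against 199 and a ratio of 0.136 (0.037 to 0.354), and Cx3cr1 a ratio of 0.462 (0.367 to 0.575). With Ccl12, 3 of 5 measured members were past 2-fold lower, where 8.74% of genes were. Most of these cells lay in cluster 30 in engineered MSC (82.6%) and in cluster 9 in PBS.

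Cycling cells were a large Ccl2 source in engineered MSC. The 107 cells of this class, led by Mki67 and Top2a, held 39.5% of all Ccl2 UMIs of that library, against 6.44% in PBS and 12.2% in native MSC. Ccl2 stood there at 1149 CPM (1109 to 1189), against 459 CPM in PBS and 624 CPM in native MSC, and Ccl7 at 461 CPM against 102 and 266 CPM. The class was deep, with a median of 26727 UMIs per cell against 11154 in macrophage-like cells of the same library. Its summed macrophage markers stood at 29224 CPM in engineered MSC and 44706 CPM in PBS, and its classical monocyte markers at 2007 and 296 CPM. The part of these markers, of depth and of remaining doublets in the difference was not tested.

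**Figure D3:**
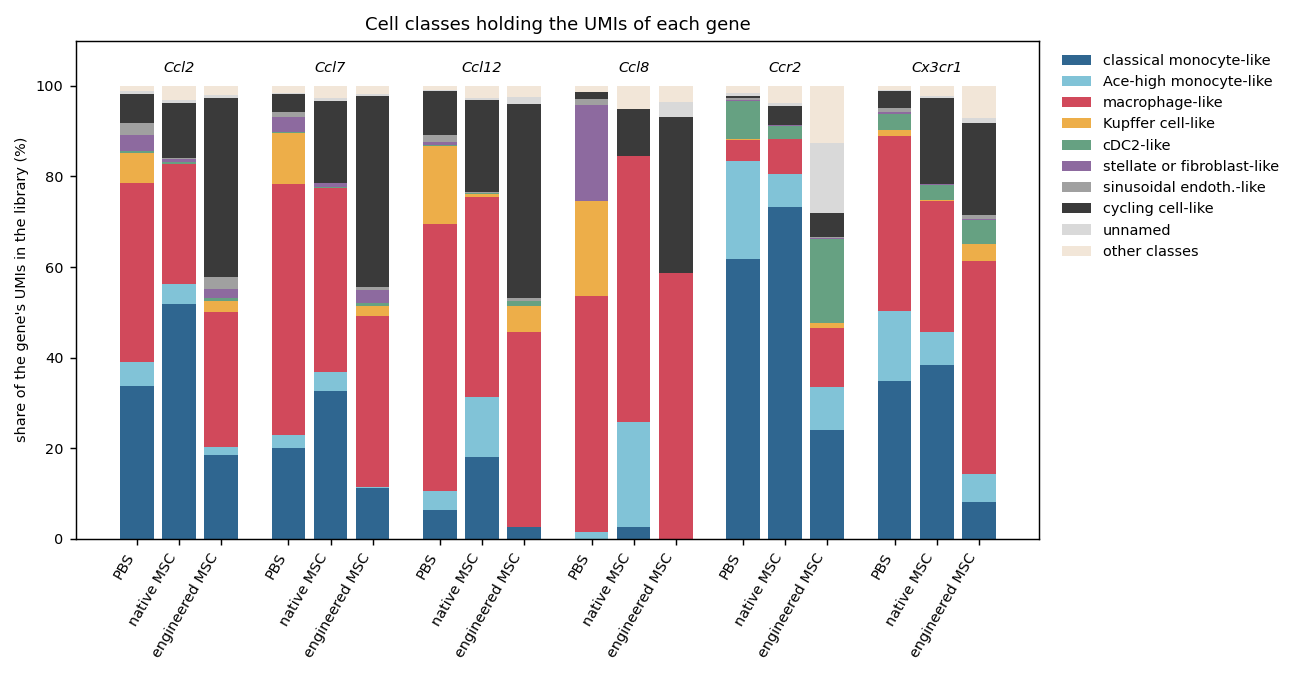
Share (%) of each gene's UMIs held by each cell class, 1 bar per gene and library. Macrophage-like and classical monocyte-like cells hold most Ccl2 and Ccl7 in PBS, and cycling cells hold 39.5% of Ccl2 in engineered MSC.

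Native MSC and PBS were compared in the same way. Ccl2 was at 517 against 277 CPM over all kept cells, a ratio of 1.87 (1.84 to 1.90), Ccl7 at a ratio of 1.49 (1.45 to 1.54) and Ccr2 at 1.35 (1.33 to 1.38). Ccl12 was at 0.951 (0.861 to 1.05), and Cx3cr1 at 0.541 (0.521 to 0.561). No member was past 2-fold in either direction, where 10.7% of genes were past 2-fold higher and 12.7% past 2-fold lower. Classical monocyte-like cells made up 26.4% of this library and Kupffer cell-like cells 0.338%, or 31 cells.

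Macrophage-like cells of native MSC had Ccl2 at a ratio of 2.86 (2.78 to 2.95), Ccl7 at 2.51 (2.40 to 2.62), Ccl12 at 1.64 (1.42 to 1.88) and Ccr2 at 5.36 (4.95 to 5.81). Ccl2, Ccl7 and Ccr2, 3 of 6 members, were past 2-fold higher, against 6.21% of genes, and the median log2 ratio of the members was 1.02 beside -0.06 over all genes. Here too the clusters differed, cluster 11 holding 96.7% of the class, and the classical monocyte markers summed to 2902 CPM against 417 CPM in PBS, whose part in the differences was not tested. Within cluster 11 Ccl2 was at 1.63 (1.42 to 1.89), Ccl7 at 1.59 (1.29 to 1.99) and Ccr2 at 0.714 (0.580 to 0.889). Ccl2 and Ccl7 thus kept their direction within that cluster, while for engineered MSC both intervals included 1. Classical monocyte-like cells had Ccl2 at 1.64 (1.60 to 1.69), with 2.01 (1.94 to 2.07) in cluster 0 and 2.14 (1.99 to 2.30) in cluster 1. Their Cx3cr1 was at 0.340 (0.320 to 0.362), the 1 of 5 measured members past 2-fold lower, where 7.11% of genes were, and the median log2 ratio of these 5 was 0.47 beside -0.19 over all genes. Cluster 0 held 40.5% of this class in native MSC and 75.3% in PBS, and the part of this in the Cx3cr1 ratio was not tested. In Ace-high cells Ccl2 was at 2.61 (2.41 to 2.82), Ccl7 at 3.78 (3.19 to 4.497) and Ccl12 at 5.14 (3.45 to 7.82), 3 of 5 past 2-fold higher, where 3.03% of genes were. Cx3cr1 was past 2-fold lower there, where 4.11% of genes were.

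**Figure D4:**
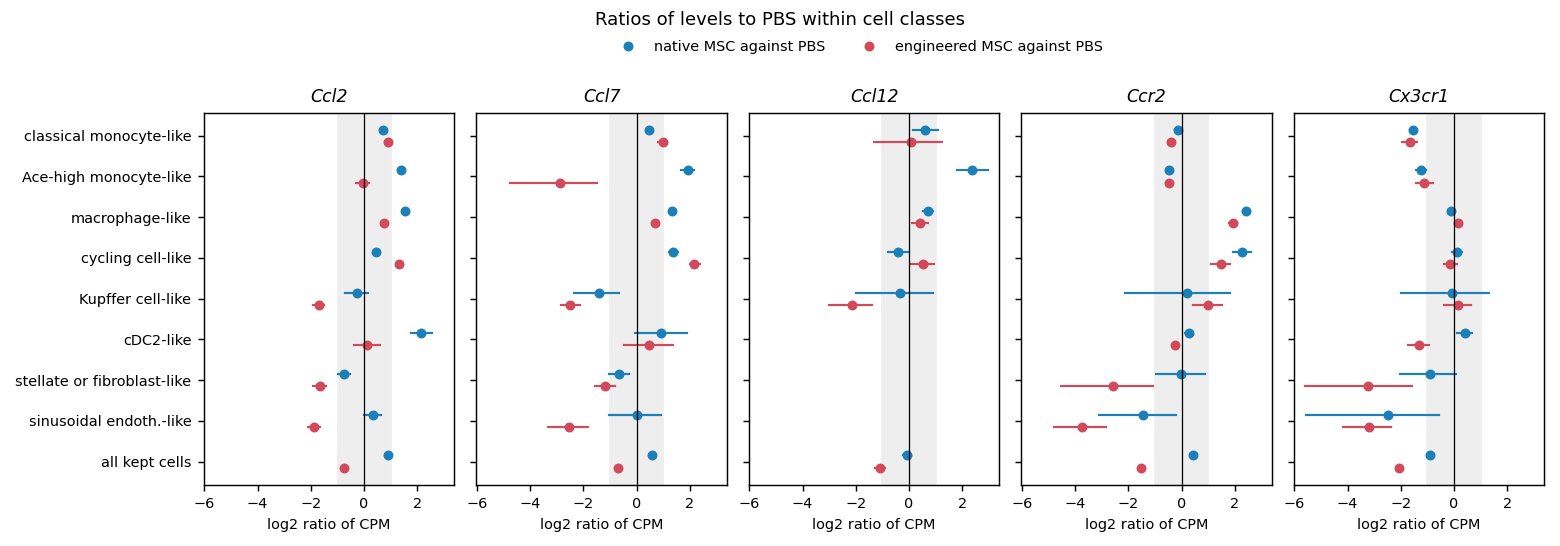
Log2 ratio of the level in native MSC (blue) and engineered MSC (red) to that in PBS for 5 genes within cell classes and over all kept cells, with 95% counting intervals. The grey band spans ratios within 2-fold, and both comparisons share the PBS library. Ratios with under 20 UMIs in all or 0 UMIs in a library are not drawn.

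Engineered MSC and native MSC were compared directly. Over all kept cells Ccl2 was at a ratio of 0.314 (0.306 to 0.322) in engineered MSC to native MSC, Ccl7 at 0.410 (0.394 to 0.427), Ccr2 at 0.256 (0.248 to 0.264) and Cx3cr1 at 0.442 (0.416 to 0.470). With Ccl12 at 0.493 (0.428 to 0.567), 5 of 6 members were past 2-fold lower, where 6.35% of genes were. In classical monocyte-like cells Ccl2 was at 1.12 (1.06 to 1.18) and Cx3cr1 at 0.935 (0.764 to 1.13). Ccl2 was higher in engineered MSC within cluster 0 of this class and lower within cluster 1. Cluster 0 held 53.2% of the class in engineered MSC and 40.5% in native MSC. In macrophage-like cells, which lay mostly in cluster 11 in both libraries, Ccl2 was at 0.593 (0.567 to 0.620), Ccl7 at 0.643 (0.602 to 0.686) and Ccr2 at 0.716 (0.653 to 0.785). The whole-library gap in Ccl2 was thus wider than the gap within either class.

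Class makeup was described by giving each library the class proportions of PBS. These proportions were shares of UMIs, not of cells, so deep classes weighed more than their cell numbers. At the PBS makeup, Ccl2 in engineered MSC had a ratio of 1.56 to PBS and Ccr2 of 0.921, against 0.606 and 0.357 for the same classes at their own proportions. Conversely, PBS class levels at the engineered MSC makeup gave 0.494 for Ccl2 and 0.359 for Ccr2. For Ccr2 the makeup alone thus gave a ratio as low as the measured one, and for Ccl2 a lower one. Cx3cr1 kept a ratio under 1 at the PBS makeup, at 0.682 in engineered MSC and 0.651 in native MSC. In native MSC, Ccl2 was at 2.07 at the PBS makeup and 1.06 from makeup alone. For the classes as drawn here, Ccl2 at the PBS makeup was thus above PBS in both MSC libraries. Differences of makeup inside a class remain in these ratios. Macrophage-like cells lay mostly in cluster 2 in PBS (97.1%) and in cluster 11 in native MSC (96.7%) and engineered MSC (95.9%). The part of makeup in the library-wide differences was not tested.

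**Figure D5:**
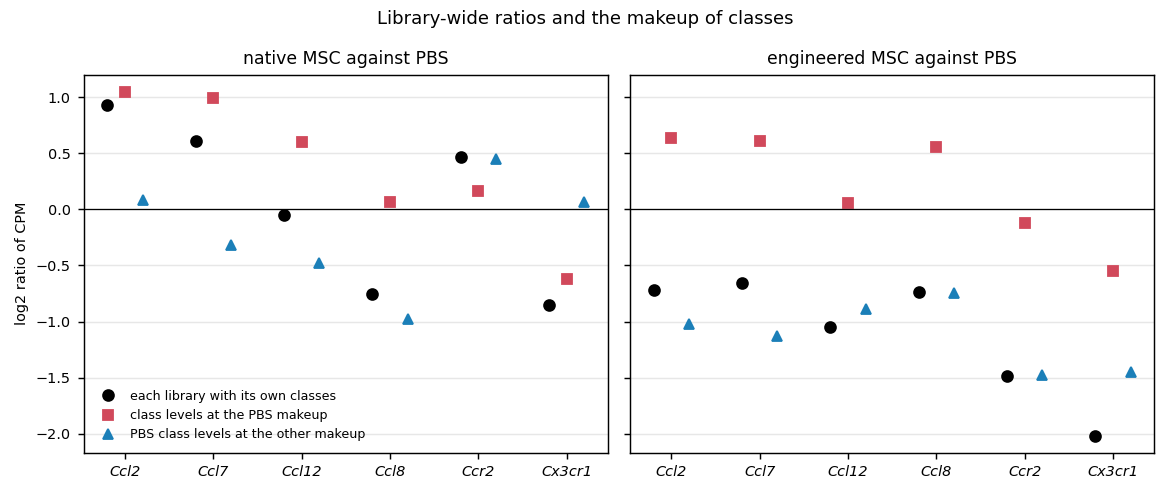
Log2 ratio to PBS of each gene over the classes present in both libraries, at each library's own proportions (circles), with both at the PBS proportions (squares) and with PBS levels at the other library's proportions (triangles). Proportions are shares of UMIs. For Ccl2, Ccl7, Ccl12 and Ccl8 in engineered MSC the squares lie above 0 and the circles below it.

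Other genes of the pathway gave the surroundings of these transcripts. Cx3cl1, the CX3CR1 ligand, was highest in stellate cell or fibroblast-like cells, at 23.9, 21.9 and 20.7 CPM in PBS, native MSC and engineered MSC. Ccr1, a receptor of Ccl7, was highest in neutrophil-like cells at 792, 596 and 780 CPM. Ackr1 and Ackr2, which bind chemokines without G protein signalling, were at 17.3, 40.6 and 54.99 CPM and at 16.1, 28.99 and 23.8 CPM in sinusoidal endothelium-like cells. Ackr3, a scavenger of CXCL12, was at 202, 385 and 122 CPM in stellate cell or fibroblast-like cells, and Ccrl2, a receptor that presents chemerin, at 2573, 948 and 792 CPM in neutrophil-like cells. The neutrophil-like class lay mostly in cluster 3 in PBS (93.6%), cluster 7 in native MSC (52.6%) and cluster 27 in engineered MSC (51.5%). The clusters of the sinusoidal and stellate classes differed too, as given above. The part of this makeup in these levels was not tested.

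Of the 6 measured genes of other ligands of the same receptors, 3 were past 2-fold higher and 1 lower in macrophage-like cells of engineered MSC against PBS, and 3 higher and 0 lower in native MSC. Of all genes in this class, 7.94% were past 2-fold higher and 5.23% past 2-fold lower in engineered MSC, and 6.21% and 6.83% in native MSC. Ccl5 was at 15.02 CPM in engineered MSC against 3.24 CPM in PBS, and Ccl3, a CCR1 ligand, was at 424 CPM in native MSC against 133 CPM in PBS. Ccl9 was lower in engineered MSC, at 370 against 823 CPM. In classical monocyte-like cells 0 of the 6 were past 2-fold in either comparison, where 4.58% of genes were past 2-fold higher in engineered MSC and 4.27% in native MSC. Of 11 measured cytokines and transcription factors known to act on Ccl2, 1 was past 2-fold higher and 0 lower in macrophage-like cells of engineered MSC, Irf1 standing at 94.2 against 39.3 CPM. This is near the 7.94% of all genes. Of 12 in native MSC, Il6 was past 2-fold higher, with 24 UMIs against 2, and Il10 lower, at 16.2 against 38.0 CPM. The cytokine Il1b, which induces Ccl2, was highest in neutrophil-like cells at 13359, 13214 and 13043 CPM, as was Tnf at 310, 143 and 161 CPM. The clusters of this class differed between the libraries, as given above. Ifng was highest in NK cell or ILC1-like cells at 170, 237 and 185 CPM. The NF-kappaB inhibitor gene Nfkbia stood at 699, 626 and 952 CPM in classical monocyte-like cells.

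Signs of handling and of free RNA moved with the libraries. The 10 dissociation stress genes summed to 3778, 4538 and 4403 CPM in macrophage-like cells and 10429, 8333 and 8017 CPM in classical monocyte-like cells of PBS, native MSC and engineered MSC. None was past 2-fold in macrophage-like cells. All 8 free hepatocyte transcripts had UMIs in macrophage-like cells and summed to 186, 552 and 2241 CPM there. The 4 haemoglobin transcripts summed to 7.11, 4222 and 642 CPM. Their part in the member genes' differences was not tested.

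Across 43 combinations of class and library from 16 classes, which share their libraries and free RNA, the gene whose log2(CPM + 1) level was most like that of Ccl2 was Hmox1, with Pearson's r of 0.92, followed by Lyz2 at 0.88 and Fcgr1 at 0.87. Ccl7 was most like Pf4 (0.88), C3ar1 (0.87) and Trem2 (0.87), and Ccl12 most like Mak (0.95), C1qb (0.90) and Myoz1 (0.88). Ccl8 was most like Ms4a14 (0.72), Cxcl14 (0.63) and Gdf15 (0.63). Among receptors, Ccr2 was most like S100a4 (0.88), Sh2d1b1 (0.86) and Pycard (0.85), and Cx3cr1 most like Ms4a6c (0.89), Mcub (0.86) and Ms4a6d (0.84). Between members, r was 0.91 for Ccl2 and Ccl7, 0.83 for Ccl7 and Ccl12, and 0.73 for Ccr2 and Cx3cr1.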

How the data were processed

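Dissociated liver cells of 3 groups, 1 library each, were measured with 10x 3' chemistry. The authors deposited filtered matrices of raw UMI counts; Cell Ranger 7.1.0 and GRCm39 are named in the submitters' processing notes. Cells with at least 200 genes and 500 UMIs and at most 20% mitochondrial UMIs were kept. Scrublet's highest scores were removed as doublets, at 0.8% per 1000 barcodes (923, 1054 and 973 barcodes). Libraries were clustered together (scanpy 1.11.5, 2000 variable genes, 30 components, 15 neighbours, Leiden resolution 1, leidenalg 0.10.2), leaving out the 6 genes and the partner genes. Clusters were named from 24 marker lists by a mean log2 ratio of at least 0.5, with at least 3 markers above 1.5-fold. The best list also had to lead those of other lineages by at least 0.5. A cluster stayed unnamed if another list had more markers among its top 10 genes. So did a cluster over 3-fold shallower than its libraries with none of its own markers among those genes. Free RNA was not subtracted. Counts summed per class gave CPM with exact Poisson intervals, shares with Clopper-Pearson intervals and ratios with exact conditional binomial intervals, all at 95%. A background share covers genes with at least 20 UMIs in the comparison. The interval code was tested on simulated Poisson counts, which hold no variation between cells. The members, lists and markers were chosen with earlier results of these data known. Partner genes were named if they belonged to a set list of receptors and cytokines or had the interval bound furthest from 1 in their list, and the 3 most alike genes were named per member. No p-value is given. A gene of the lists is not reported here.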

Additional observations from a re-analysis of the deposited data

Results flagged for a closer look

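Several genes stood higher than in the reference library in one class and lower in another, and these differences between classes were not tested. On the log2 scale, engineered MSC against PBS gave 1.32 for Ccl2 in cycling cells and -1.89 in sinusoidal endothelium-like cells. That class was 99.4% cluster 10 in PBS and 95.1% cluster 5 in engineered MSC, and within cluster 10 engineered MSC had the higher Ccl2, at a ratio of 1.72 (1.42 to 2.06) from 79 cells. Ccl7 gave 2.18 in cycling cells and -2.49 in Kupffer cell-like cells. Ccl12 gave 0.51 and -2.15 in the same classes. Ccr2 gave 1.94 in macrophage-like and -3.75 in sinusoidal endothelium-like cells, where it had 11 UMIs in engineered MSC. Its 100 UMIs in that class of PBS were close to the B cell-like level, and the clusters differed as for Ccl2. For native MSC against PBS, Ccr2 gave 2.42 in macrophage-like cells and -1.24 in neutrophil-like cells. The neutrophil-like level of native MSC, from 79 UMIs, was close to the B cell-like level. For engineered MSC against native MSC, Ccl2 gave 0.88 in cycling cells and -4.62 in erythroid cell-like cells, where native MSC had 76 UMIs. Ccl7 gave 0.79 in cycling cells and -4.80 in Ace-high monocyte-like cells. The part of free RNA in the sinusoidal, neutrophil-like and erythroid values was not tested. Cells outside the named classes also carried members above the B cell-like level: Ccr2 stood at 292 CPM (PBS) and 333 CPM (engineered MSC) in unnamed cluster 16, and Ccl2 at 299 CPM in the shallow unnamed cluster 21 of PBS.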

How the results depend on the processing

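No paired analysis was possible because each group is 1 library. The values here are log2 ratios to PBS. At a minimum of 500 genes per cell, the macrophage-like class was drawn differently: a cluster led by Spp1, Pclaf and Pf4, with 756 native MSC and 201 engineered MSC cells, was named cycling, and 21 engineered MSC and 34 native MSC cells were left against 1851 of PBS. There engineered MSC gave -2.62 for Ccl2, -2.83 for Ccl7 and -2.84 for Ccl12, and native MSC gave 0.18, -0.58 and -0.088. Monocyte classes were redrawn there too. A cluster led by Thbs1, Cd86 and Pid1, with 1224 PBS cells, was left unnamed. Classical monocyte-like cells then numbered 856 in PBS and 1882 in native MSC, and gave -0.29 for Ccr2 in native MSC. The class scoring highest for patrolling monocytes, now led by Cxcl10, Ifit3 and Mx1, held 276, 244 and 288 cells in PBS, native MSC and engineered MSC. In the main setting it held 830, 423 and 115. The redrawn class gave -0.50 (engineered MSC) and -0.45 (native MSC) for Cx3cr1. At Leiden resolution 2, engineered MSC macrophage-like cells gave 0.45 for Ccl2, 0.41 for Ccl7 and -0.023 for Ccl12. In native MSC it gave -0.28 for Ccr2 in classical monocyte-like and -0.996 for Cx3cr1 in Ace-high cells. At this resolution a cluster led by genes that include Cd86, Pid1 and Thbs1, with 941 PBS and 341 native MSC cells, was left unnamed. Classical monocyte-like cells numbered 884 in PBS and 2162 in native MSC, in place of 1849 and 2426. Ace-high cells numbered 704 and 199, in place of 830 and 423. With each cell counted alike, engineered MSC gave 0.23, 0.19 and 0.11 for Ccl2, Ccl7 and Ccl12 in macrophage-like cells, -0.24 for Ccr2 and -0.80 for Cx3cr1, and native MSC gave 1.60 for Ccl2, -0.066 for Ccr2 and -1.44 for Cx3cr1. With doublets kept, Ccl2 (1.32) and Ccl7 (1.23) in native MSC, Ccl7 (0.81) in engineered MSC, and Ccr2 (-0.49 and -0.34 in engineered and native MSC) moved. A mitochondrial limit of 10% gave 1.38 for Ccl2 in native MSC macrophage-like cells. Ccl8 in macrophage-like cells did not move beyond its counting interval where it could be computed. It had no value at 500 genes. Cx3cr1 in the Ace-high class had none with doublets kept, where the class held 97 engineered MSC cells and 0 of PBS, or at 10%, where a cluster led by Ace and Adgre4, with 633, 350 and 13 cells in PBS, native MSC and engineered MSC, was left unnamed. Several classes were redrawn between settings, and the cause of each change was not tested. Depth limits Ccl8 and Ccl12 most. With genes of 1 UMI or more tested in place of 20, the shares of genes past 2-fold were larger: in macrophage-like cells 15.7% higher and 21.3% lower for engineered MSC (3239 and 4401 genes in place of 1051 and 692), and 15.8% and 18.6% for native MSC (3326 and 3929 in place of 839 and 924). In classical monocyte-like cells they were 12.2% and 29.5% (2300 and 5571 in place of 527 and 1029), and 14.9% and 16.5% (3062 and 3386 in place of 556 and 926). The members had 20 UMIs or more in these classes, except Ccl8 in classical monocyte-like cells.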

Other observations

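An unnamed cluster led by Cxcr6, Zbtb16, Trgc1 and Trgc2, with 138, 46 and 520 cells in PBS, native MSC and engineered MSC, scored highest for T cells and carried Ccr2 at 292, 361 and 333 CPM. The unnamed cells together held 15.5% of all Ccr2 UMIs of engineered MSC, next to 23.9% in classical monocyte-like and 18.5% in cDC2-like cells.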
